A study of Sus scrofa with 6 samples.

Results

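The genes described here are 10 regulators of mitochondrial biogenesis and of peroxisome proliferator-activated receptor (PPAR) signaling in the pig heart. They were listed with earlier results of these data known, and were matched by symbol: PPARGC1A, PPARGC1B, ESRRA, ESRRG, PPARA, PPARD, RXRA, NRF1, GABPA and TFAM. All 10 were found among the 13288 genes of the deposited expression table, and none was missing. The transcriptome of ventricular tissue was profiled in 3 sham and 3 descending aortic constriction (DAC) Tibetan minipigs, all male, with tissue taken at week 12 after surgery. In the DAC group the descending aorta was narrowed with sutures through a thoracotomy to impose chronic pressure overload, and the sham group underwent the same thoracotomy without constriction. No genetic modification was described, the age of the minipigs was not given in the sources used here, and whether left or right ventricle was sequenced is not stated in the labels. Each sample is a separate minipig, and the replicate numbers run from 1 to 3 in the sham and from 4 to 6 in the DAC group.

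In cardiomyocytes, the coactivators PGC-1α (PPARGC1A) and PGC-1β (PPARGC1B) do not bind DNA by themselves. They are recruited by the estrogen-related receptors ERRα (ESRRA) and ERRγ (ESRRG), by PPARα (PPARA) and PPARδ (PPARD), which bind DNA together with the retinoid X receptor RXRα (RXRA), and by the nuclear respiratory factors NRF1 and GABPα (GABPA). Through these factors they drive nuclear genes for fatty acid oxidation, the citrate cycle and the respiratory chain, as well as TFAM, which packages the mitochondrial genome and starts its transcription. The network is known for keeping the oxidative capacity of the adult heart high.

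Values are FPKM, fragments divided by transcript length and by the size of the library, so levels of different genes can be set side by side. Summed over all genes, a sample held 281377 to 308771 FPKM. Read numbers behind the values are unknown, so precision rests on the spread between minipigs. A difference is the DAC mean minus the sham mean of log2(FPKM + 1), from limma's moderated test on the 11029 genes that reached 1 FPKM in 3 or more samples. On this scale changes of weakly expressed genes come out too small. A gene was called at an unadjusted P under 0.05 in that test, whatever its size. No gene of the table reached an adjusted P under 0.05 by limma with Benjamini-Hochberg adjustment, where the smallest was 0.106, so every call below is at the unadjusted threshold. Without adjustment, 939 genes were called. The heart label was checked with cardiomyocyte markers, of which 10 of 13 were in the table. Their summed FPKM was between 15275 and 15849 in the sham and between 14406 and 17258 in the DAC samples. MYH7, the slow myosin heavy chain, was between 1781 and 1935 FPKM. The markers MYH6, PLN and TTN were not analysed here. Of 10 fibroblast markers, 5 were called higher in DAC (COL1A1, COL1A2, COL3A1, LUM and POSTN), which is 50.0% where 3.25% of all tested genes were. None was called lower, and DCN (-0.012) and TCF21 (-0.022) had slightly lower log2 means in DAC. The markers had sums between 558 and 648 FPKM in sham and between 784 and 881 in DAC. None of the fibroblast markers was at 0. Endothelial markers were called in both directions, KDR and EMCN higher and VWF and CLDN5 lower, out of 9. This is 22.2% in each direction, where 3.25% of all tested genes were called higher and 5.27% lower. Of the other markers, the calls were RYR2 lower among 10 of cardiomyocytes, CNN1 higher among 8 of smooth muscle, CD163 lower among 5 of leukocytes, and 0 among 3 of adipocytes and 2 of skeletal muscle. In such bulk tissue, fewer cells of a type and less RNA per cell cannot be told apart.

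All 10 regulators passed the filter. PPARGC1A was the only regulator called, and it was higher in DAC. That is 1 of 10 called higher, where 3.25% of all tested genes were called higher, and 0 of 10 called lower, where the share was 5.27%. Over 10 genes, either background share amounts to less than 1 gene, and the count is near it. The mean was higher in DAC for 6 regulators and lower for 4. Their median difference was 0.005 on the log2 scale, against -0.016 over all genes tested, and the median size of the difference, regardless of sign, was 0.11 for the regulators and 0.13 for all genes. The groups did not overlap in 2 regulators, ESRRA and RXRA, both lower in DAC. Over all tested genes the groups did not overlap in 14.9%, made up of 6.01% higher and 8.91% lower in DAC. The summed FPKM of the 10 genes was 184 ± 13.1 (SD, n = 3) in sham and 189 ± 9.82 (SD, n = 3) in DAC.

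**Figure D1:**
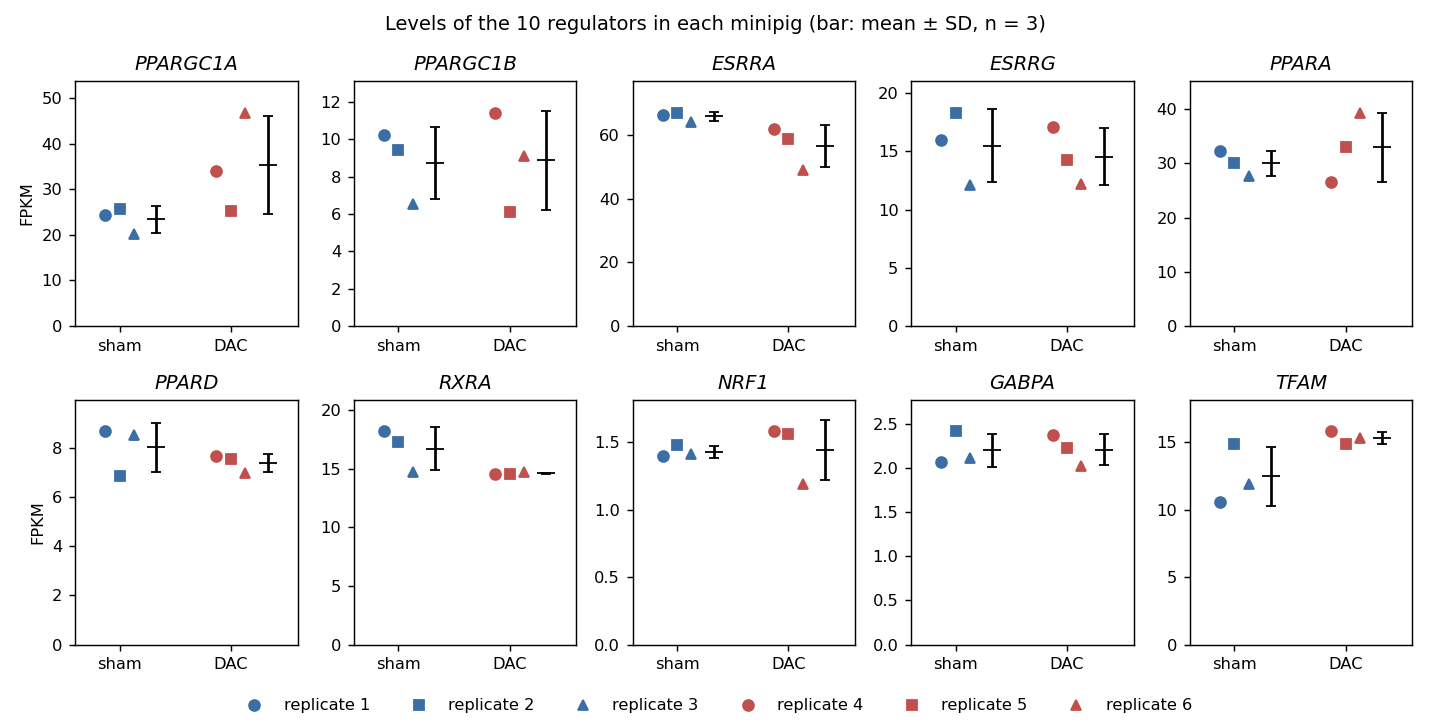
FPKM of the 10 regulators (vertical axes, each starting at 0) in 3 sham minipigs (blue) and 3 DAC minipigs (red), with a marker for each replicate and a black bar for the mean ± SD. PPARGC1A was highest in DAC replicate 6 at 46.7 FPKM, ESRRA was lower in every DAC minipig than in every sham minipig, and RXRA was the only other regulator whose groups did not overlap.

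By level in all 6 samples, the regulators fell into several tiers. ESRRA was the most abundant, at 61.3 FPKM over the 6 samples, and its range from 49.1 to 67.0 lay above that of every other regulator. PPARA followed with a mean of 31.5 FPKM and PPARGC1A with 29.4, but the ranges overlapped and their order differed between the groups. PPARA had the higher mean in sham (30.0 against 23.4 FPKM) and PPARGC1A in DAC (35.4 against 32.9 FPKM), where DAC replicates 4 and 6 were the samples with PPARGC1A above PPARA. RXRA (15.7 FPKM), ESRRG (15.0) and TFAM (13.9) formed the next tier, with overlapping ranges between neighbours. TFAM was above PPARGC1B in 6 of 6 samples, although their ranges overlapped. PPARGC1B at 8.79 and PPARD at 7.70 FPKM overlapped as well, with PPARGC1B higher in 4 of 6 samples. The DNA-binding factors GABPA, at 2.20 FPKM, and NRF1, at 1.44 FPKM, were lowest, and their ranges were apart from each other and from PPARD. NRF1 was at the 23.4th percentile of all genes in the table by mean level, against the 95.8th for ESRRA.

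Among the coactivators, PPARGC1A (ENSSSCG00000029275, chromosome 8 from 17841844 to 17961909, minus strand, build susScr11) encodes PGC-1α, the inducible coactivator of the network. It was at 24.4, 25.6 and 20.1 FPKM in sham replicates 1 to 3 and at 34.0, 25.3 and 46.7 FPKM in DAC replicates 4 to 6. DAC replicates 4 and 6 lay above all sham samples, while DAC replicate 5 was 0.334 FPKM below the highest sham value, so the groups overlapped. The means were 23.4 ± 2.92 (SD, n = 3) in sham and 35.4 ± 10.8 (SD, n = 3) in DAC, a ratio of 1.51. On the log2 scale the difference was 0.54 (standard error 0.22, 95% confidence interval 0.024 to 1.06). The unadjusted P of limma was 0.0427 and its adjusted P = 0.584, while the two-sided exact permutation test of the same values gave P = 0.200. With 3 samples against 3, the exact test cannot go below 0.10. By its limma P, PPARGC1A ranked 799th of the 11029 genes. The call was lost in most fits that left out 1 minipig, but the difference shrank only without DAC replicate 6 or sham replicate 3. Without DAC replicate 5 the difference was 0.75 and PPARGC1A was called. It was no longer called when DAC replicate 6 (difference 0.32) or DAC replicate 4 (0.55) was left out. The same held when sham replicate 1 (0.57), 2 (0.61) or 3 (0.44) was left out. Without sham replicate 1, sham replicate 2 or DAC replicate 4, the standard error was 0.26, 0.26 and 0.27, against 0.22 with all samples. DAC replicate 5, the lowest of its group for PPARGC1A, was also the sample in which mitochondrially encoded genes took the largest share of the summed FPKM, at 32.8%, against 27.1% to 27.2% in the other DAC samples and 24.0% to 25.3% in sham. With these genes left out and the rest rescaled, PPARGC1A differed by 0.58 and was called. The part of the fibroblast markers given above in this difference was not tested.

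PPARGC1B (ENSSSCG00000014437, chromosome 2 from 150823373 to 150919378, plus strand) encodes PGC-1β, the close relative of PGC-1α. Its values were 10.2, 9.43 and 6.53 FPKM in sham and 11.4, 6.12 and 9.10 FPKM in DAC. The lowest and the highest value of all 6 were both in the DAC group. The difference was 0.005 on the log2 scale, with a 95% confidence interval from -0.55 to 0.56, which holds changes of either sign. PPRC1, which encodes the third PGC-1 family member PRC, was lower in every DAC minipig (6.86, 7.48 and 7.53 FPKM) than in every sham minipig (8.12, 8.26 and 8.94 FPKM), but was not called (difference -0.19, adjusted P = 0.638 by limma).

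Within each minipig, PPARGC1A made up 57.1%, 59.2% and 56.5% of the summed FPKM of the 3 PGC-1 family genes in the sham samples, and 65.1%, 65.1% and 73.7% in the DAC samples. The groups did not overlap for this share, whose mean was 57.6% ± 1.40 (SD, n = 3) in sham and 68.0% ± 5.0 (SD, n = 3) in DAC. A share within a sample does not depend on how samples are scaled against each other. It is a description, since this quantity was computed in addition to the planned tests.

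**Figure D2:**
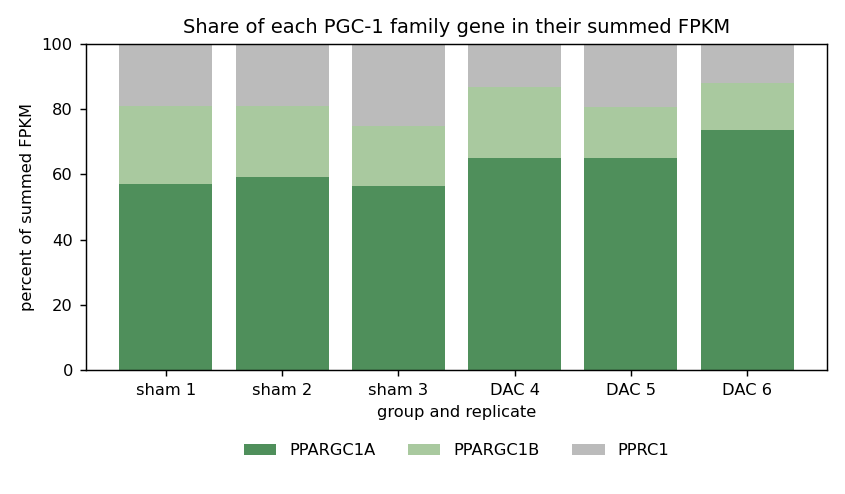
Percent of the summed FPKM of the PGC-1 family taken by PPARGC1A (dark green), PPARGC1B (light green) and PPRC1 (grey) in each minipig. The PPARGC1A share is at most 59.2% in the sham samples and at least 65.1% in the DAC samples.

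Of the orphan receptors, ESRRA (ENSSSCG00000013028, chromosome 2 from 7803510 to 7813836, minus strand) encodes ERRα, a main partner of PGC-1α on genes of oxidative metabolism. It was at 66.5, 67.0 and 64.3 FPKM in sham and at 62.1, 58.7 and 49.1 FPKM in DAC. All DAC values lay below all sham values, and DAC replicate 6, the highest sample for PPARGC1A, was the lowest for ESRRA. The means were 65.9 ± 1.43 (SD, n = 3) and 56.7 ± 6.75 FPKM (SD, n = 3), a difference in means of -14.1%. On the log2 scale this was -0.22 (standard error 0.12, 95% confidence interval -0.50 to 0.053), and ESRRA was not called. Its limma P was 0.0981 (adjusted P = 0.635) and its exact permutation P was 0.10, the smallest the design allows. Leaving out DAC replicate 4 made it a gene called lower (-0.29), and leaving out DAC replicate 6 reduced the difference to -0.12. The annotated span of ESRRA shares 2320 bases with TRMT112 on the opposite strand and 3001 bases with PRDX5 on the same strand. The assignment of reads from shared stretches is not given in the sources used here. The neighbours had means of 6.39 and 5.68 FPKM in sham, and the part of shared reads in the ESRRA values was not tested.

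ESRRG (ENSSSCG00000010814, chromosome 10 from 6712841 to 7030063, minus strand), which encodes ERRγ, was at 16.0, 18.3 and 12.1 FPKM in sham and at 17.1, 14.3 and 12.2 FPKM in DAC. The groups overlapped almost entirely, and the difference of -0.078 had a 95% confidence interval from -0.50 to 0.35. ESRRA accounted for 81.1% ± 2.85 (SD, n = 3) of the summed FPKM of these receptors in sham and for 79.7% ± 1.07 (SD, n = 3) in DAC, so their balance in the 2 groups overlapped.

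PPARA (ENSSSCG00000000006, chromosome 5 from 3300708 to 3366361, minus strand) encodes PPARα, the receptor that senses fatty acids and drives their oxidation in the heart. Its values were 32.2, 30.1 and 27.7 FPKM in sham and 26.5, 33.0 and 39.3 FPKM in DAC. DAC replicate 4 was below and DAC replicates 5 and 6 were above all sham samples. The difference of 0.12 (95% confidence interval -0.25 to 0.48) was not called, and it was -0.017 without DAC replicate 6. PPARD (ENSSSCG00000001539, chromosome 7 from 31222589 to 31295212, plus strand), the more widely expressed receptor of the family, was at 8.66, 6.86 and 8.51 FPKM in sham and at 7.65, 7.53 and 6.97 FPKM in DAC. All DAC values of PPARD lay inside the sham range, and its difference was -0.10 (95% confidence interval -0.38 to 0.18). PPARG, best known from adipocytes, did not pass the filter and was between 0.626 and 1.32 FPKM. PPARA made up between 74.6% and 82.6% of the summed FPKM of the 3 receptors, with overlapping groups.

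RXRA (ENSSSCG00000038220, chromosome 1 from 273705503 to 273797622, plus strand) encodes RXRα, a partner of the PPARs on DNA. It was at 18.2, 17.3 and 14.7 FPKM in sham and at 14.6, 14.6 and 14.7 FPKM in DAC. The DAC samples were almost equal, with a coefficient of variation of 0.213%, and they lay below all sham samples by a margin of no more than 0.0221 FPKM from sham replicate 3. The difference of -0.18 (standard error 0.11, 95% confidence interval -0.44 to 0.085) was not called (limma P = 0.156, adjusted P = 0.677, exact permutation P = 0.10). RXRG was the most abundant of the 3 retinoid X receptors, at 32.6 ± 1.56 FPKM (SD, n = 3) in sham and 31.9 ± 5.29 FPKM (SD, n = 3) in DAC. RXRB was at 9.19 ± 1.05 (SD, n = 3) and 8.35 ± 0.535 FPKM (SD, n = 3). RXRA thus supplied between 25.3% and 29.9% of the summed FPKM of the 3 genes.

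The nuclear respiratory factors were low and close to equal in the groups. NRF1 (ENSSSCG00000016566, chromosome 18 from 18998905 to 19142628, minus strand), which activates genes for cytochrome c and respiratory chain subunits, was at 1.40, 1.48 and 1.41 FPKM in sham and at 1.58, 1.56 and 1.19 FPKM in DAC. The DAC values lay on both sides of the narrow sham range, and the difference was 0.007 (95% confidence interval -0.27 to 0.28). GABPA (ENSSSCG00000037655, chromosome 13 from 189278149 to 189327500, plus strand), the DNA-binding subunit of GABP, also called NRF-2, was at 2.07, 2.41 and 2.11 FPKM in sham and at 2.37, 2.22 and 2.02 FPKM in DAC. Its difference was 0.005 (95% confidence interval -0.25 to 0.26). At these low levels the added pseudocount compresses differences, but with a pseudocount of 0.1 neither gene was called. GABPA shares 11285 bases of its annotated span with ATP5PF on the other strand, which had a mean of 49.2 FPKM in sham and 40.0 FPKM in DAC. Whether the counting used strand is not given in the sources used here, so reads of GABPA and of this more abundant neighbour may not be separated in that stretch. Of the partner subunits, GABPB1 was below the filter and not tested. Its values were 0.780, 0.910 and 0.835 FPKM in sham and 1.13, 0.919 and 0.967 FPKM in DAC, higher in DAC without overlap of the groups. GABPB2 was at 2.93 ± 0.359 (SD, n = 3) in sham and 3.02 ± 0.648 FPKM (SD, n = 3) in DAC.

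TFAM (ENSSSCG00000040185, chromosome 14 from 92259403 to 92279550, minus strand) was at 10.6, 14.9 and 11.9 FPKM in sham and at 15.8, 14.9 and 15.3 FPKM in DAC. Sham replicate 2 exceeded DAC replicate 5 by 0.0558 FPKM, and the other sham samples lay below all DAC samples. The means were 12.5 ± 2.24 (SD, n = 3) and 15.3 ± 0.477 FPKM (SD, n = 3), a ratio of 1.23. TFAM differed by 0.29 on the log2 scale (standard error 0.14, 95% confidence interval -0.03 to 0.61) and was not called (limma P = 0.0696, adjusted P = 0.596, exact permutation P = 0.200). Leaving out sham replicate 2 made it a gene called higher (0.42), as did quantile normalization (0.34) and the removal of mitochondrially encoded genes (0.33). Its difference was smallest, at 0.19, when sham replicate 1 was left out.

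**Figure D3:**
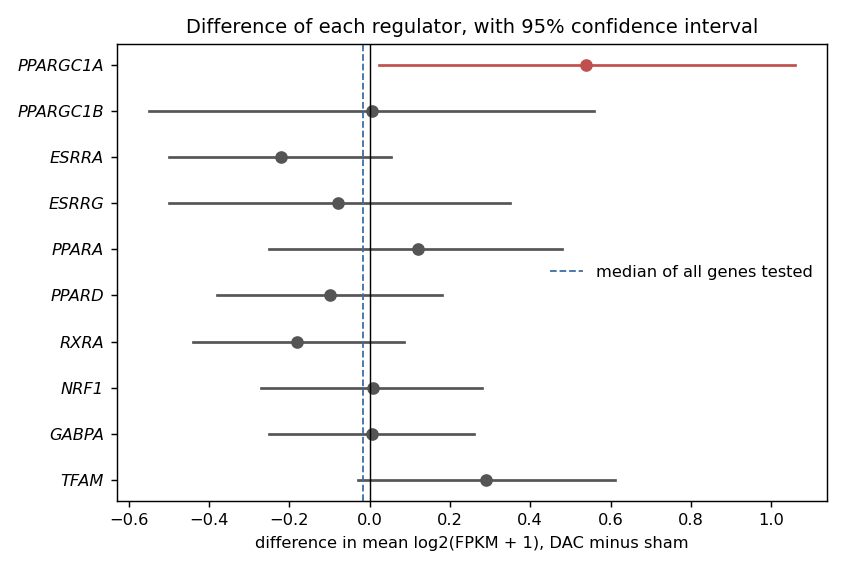
Difference of each regulator between DAC and sham minipigs in mean log2(FPKM + 1) (dots) with the 95% confidence interval from limma (lines), red where the unadjusted P was under 0.05. The interval of PPARGC1A alone lies above 0, from 0.024 to 1.06, and the dashed line marks the median of all genes tested at -0.016.

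Sample by sample, the regulators did not move together within the DAC group. DAC replicate 6 held the highest value of 2 regulators, PPARGC1A and PPARA, and the lowest of 3, ESRRA, NRF1 and GABPA. DAC replicate 4 was highest for PPARGC1B, NRF1 and TFAM and lowest for PPARA. DAC replicate 5 was the highest sample for none of the regulators.

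The 5 tested genes whose values over the 6 samples were most like those of PPARGC1A, by the root mean square difference of log2(FPKM + 1) centred on its mean, were PRRX1 (0.0939), PPP1R3C (0.101), HLX (0.104), CIART (0.129) and MID1IP1 (0.134). The median of this measure over the 9959 genes compared was 0.416. PPP1R3C, a subunit that directs protein phosphatase 1 to glycogen, was the most abundant of them, at 96.5, 128 and 92.7 FPKM in sham and 152, 112 and 197 FPKM in DAC. CIART, a repressor of the circadian clock, was at 1.87, 2.67 and 2.07 FPKM in sham and 3.85, 2.88 and 5.79 FPKM in DAC. PRRX1 and HLX are homeobox transcription factors, and MID1IP1 regulates acetyl-CoA carboxylase. PRRX1 was weakly expressed, between 1.24 and 3.70 FPKM. By the ratio of means, PRRX1 (1.80) and CIART (1.89) changed more than PPARGC1A (1.51), so their likeness depends on the added 1. That all 5 were highest in DAC replicate 6 and next highest in DAC replicate 4, like PPARGC1A, follows from the way they were chosen.

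**Figure D4:**
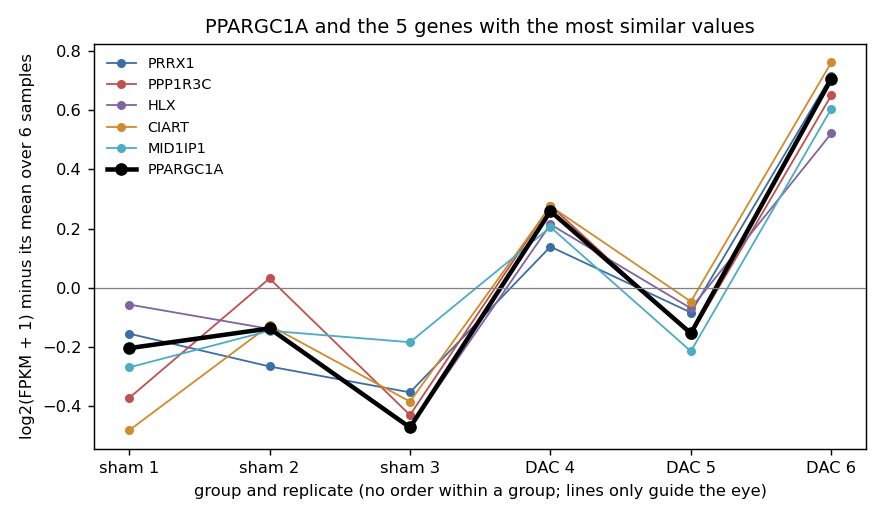
Values of log2(FPKM + 1) minus their mean over the 6 samples for PPARGC1A (black) and the 5 genes most like it (colours), by group and replicate. All 6 lines are highest in DAC replicate 6, and in DAC replicate 5 they lie nearer to the sham values, which the choice of genes by likeness brings with it.

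The other genes of the pathway were taken from lists of relatives, cofactors, mitochondrial genome machinery and targets. Of 9 relatives and partners, 8 were in the table, PERM1 was not analysed here, and 6 were tested. None was called, the median difference was -0.071, and PPRC1 had the smallest P of the list. NFE2L2, a regulator of antioxidant genes, was at 16.3 ± 1.99 (SD, n = 3) in sham and 15.2 ± 1.29 FPKM (SD, n = 3) in DAC.

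Of 21 cofactors and upstream factors, 1 was called higher and 0 were called lower, with a median difference of -0.026. These are 4.76% and 0% of the list, near the 3.25% and 5.27% of all tested genes, and the groups did not overlap in 19.0%, near the 14.9% of all tested genes. The one called was MEF2A, a muscle transcription factor that acts on the PPARGC1A gene. It was at 30.3, 30.2 and 28.8 FPKM in sham and at 40.7, 33.3 and 36.2 FPKM in DAC, without overlap of the groups (difference 0.29, standard error 0.11, adjusted P = 0.563 by limma). MEF2A lost its call when sham replicate 1, 2 or 3, or DAC replicate 6, was left out, and 1 cofactor, a different gene each time, was called lower without sham replicate 2 (NCOR1), DAC replicate 4 (MYBBP1A), DAC replicate 5 (NRIP1) or DAC replicate 6 (KAT2A). NCOA1 in place of MEF2A was called higher without DAC replicate 4. KAT2A, an acetyltransferase that inhibits PGC-1α, was at 3.99 ± 0.473 (SD, n = 3) in sham and 3.09 ± 0.563 FPKM (SD, n = 3) in DAC. The corepressor NCOR1 was at 26.4 ± 4.09 (SD, n = 3) and 21.9 ± 1.27 FPKM (SD, n = 3). YY1 and MYBBP1A did not overlap between the groups, with lower values in DAC (differences -0.19 and -0.20), and neither was called. For MYBBP1A the margin was small, with DAC replicate 4 at 32.5 FPKM and sham replicates 1 and 2 at 32.6 FPKM. PRKAA2, the main catalytic AMPK subunit of muscle, which phosphorylates PGC-1α, was at 39.8 FPKM in sham and 41.1 FPKM in DAC. The deacetylase SIRT1 was at 3.64 and 3.91 FPKM. PRKAA2 and SIRT1 were named after their values were seen.

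For transcription, replication and RNA stability of the mitochondrial genome, 18 of 19 genes were in the table, MTERF4 was not analysed here, and 17 were tested. By share, 5.88% of the tested genes were called lower and 0% higher, near the 5.27% and 3.25% of all tested genes. Groups that did not overlap made up 11.8% of the list, against 14.9% of all tested genes. TWNK, the replicative helicase of mitochondria, was the only gene called and was lower in DAC. It was at 6.55, 2.81 and 3.43 FPKM in sham and at 1.49, 1.70 and 2.25 FPKM in DAC (difference -0.85, standard error 0.26, adjusted P = 0.509 by limma). The groups did not overlap, and sham replicate 1 was far above the other samples. TWNK was called in every fit that left out 1 minipig. POLG2, the accessory subunit of the mitochondrial DNA polymerase, was at 3.06 ± 1.09 (SD, n = 3) in sham and 1.95 ± 0.175 FPKM (SD, n = 3) in DAC without overlap, and was not called. The annotated span of POLG2 lies within that of PECAM1 on the same strand, which had means of 27.0 FPKM in sham and 22.0 FPKM in DAC. The part of shared reads in the POLG2 values was not tested. The catalytic subunit gene POLG was at 11.3 ± 0.865 (SD, n = 3) and 9.41 ± 1.17 FPKM (SD, n = 3), and the mitochondrial RNA polymerase gene POLRMT at 5.25 ± 0.295 (SD, n = 3) and 4.43 ± 0.636 FPKM (SD, n = 3). TOP1MT, a mitochondrial topoisomerase, ranged in DAC from 1.06 to 5.95 FPKM. Calls in this list numbered 4 without DAC replicate 5 (TWNK, POLRMT, POLG and LRPPRC), 2 without DAC replicate 4 (TWNK and TOP1MT) and 2 without sham replicate 3 (TWNK and POLG2). The median difference was -0.058, while TFAM, which acts on the same genome, had a higher mean in DAC.

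The 13 protein genes that the mitochondrial genome itself encodes had higher means in DAC, and 3 were called higher (ND4, ATP6 and ATP8), which is 23.1% where 3.25% of all tested genes were. None was called lower, where the share of all genes was 5.27%. The 13 genes lie on the same genome, and the annotated spans of ATP8 and ATP6 overlap, so they need not vary independently of each other. ATP6, a subunit of ATP synthase, was at 2908, 3348 and 3247 FPKM in sham and at 4163, 4507 and 3624 FPKM in DAC (difference 0.37, adjusted P = 0.531 by limma). Side by side with TFAM, the share of these genes in the summed FPKM was 24.0%, 25.1% and 25.3% in sham replicates 1 to 3 and 27.2%, 32.8% and 27.1% in DAC replicates 4 to 6. DAC replicate 5 thus had the highest share and the lowest TFAM of the DAC group. ND4L, at 2017 ± 55.2 (SD, n = 3) in sham and 2791 ± 789 FPKM (SD, n = 3) in DAC, and ND6, at 2063 ± 522 (SD, n = 3) and 2902 ± 637 FPKM (SD, n = 3), were not called. After quantile normalization the median difference of the 13 genes went from 0.26 to 0.014 and none was called, and with DAC replicate 5 left out the median was 0.10. The number called was 0 when sham replicate 1 or 3 was left out, 1 when DAC replicate 5 was left out, and 8 when DAC replicate 4 was left out.

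Of 30 genes listed as PPAR targets, most of them for fatty acid handling, 27 were in the table and 26 were tested. ACOT1, ACOT2 and FBP2 were not analysed here. Those called were 1 higher and 3 lower, that is 3.85% against a background of 3.25% and 11.5% against 5.27%. ANGPTL4, a secreted inhibitor of lipoprotein lipase, was at 9.75, 12.7 and 11 FPKM in sham and at 6, 4.50 and 6.40 FPKM in DAC. Every DAC value of ANGPTL4 lay below every sham value (difference -0.88, standard error 0.15, adjusted P = 0.335 by limma), and it was called in every fit that left out 1 minipig. DECR1, an enzyme for the oxidation of unsaturated fatty acids, was at 36.4, 35.9 and 40.1 FPKM in sham and at 33.4, 18.4 and 25.4 FPKM in DAC (difference -0.56). Of the fits that left out 1 minipig, DECR1 was called only in that without DAC replicate 4, and with unmoderated variances it was not called. TXNIP, which restrains glucose uptake, was at 404 ± 13.2 (SD, n = 3) in sham and 326 ± 21.2 FPKM (SD, n = 3) in DAC. UCP2, a mitochondrial carrier, was the gene called higher, at 4.16, 4.99 and 4.84 FPKM in sham and 5.51, 10.2 and 6.44 FPKM in DAC (difference 0.53). MLYCD, which degrades malonyl-CoA, was at 12.2 ± 4.28 (SD, n = 3) in sham and 7.76 ± 0.638 FPKM (SD, n = 3) in DAC and was not called. PDK4, which turns off pyruvate dehydrogenase, was chosen after its values were seen. It was at 117, 85.6 and 99.3 FPKM in sham and at 52.6, 138 and 27.3 FPKM in DAC, so that DAC replicate 5 was above and the other DAC samples were below all sham samples. CD36, a fatty acid transporter, and CPT1B, the muscle carnitine palmitoyltransferase, also chosen after their values were seen, were at 49.0 and 89.3 FPKM in sham and 48.4 and 80.3 FPKM in DAC. The median difference of the list was -0.086, and single minipigs moved it. It was -0.033 with DAC replicate 4 left out, -0.22 with DAC replicate 5 left out and -0.19 with sham replicate 2 left out. The number called lower was 1 without sham replicate 1, sham replicate 3 or DAC replicate 6 and 5 without sham replicate 2. UCP2 was not called without sham replicate 1, 2 or 3 or DAC replicate 5.

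Of 32 genes known as ERR, NRF1 or GABP targets, 29 were in the table and tested, and COX8B, ATP5F1B and NDUFS7 were not analysed here. Most belong to the respiratory chain or the citrate cycle, and some serve other mitochondrial functions, so the shares below cover both kinds. A lower mean in DAC was found for 28 of the 29, and 9 were called lower and 0 higher. This is 31.0% called lower, where 5.27% of all tested genes were, and the median difference was -0.22 against -0.016 over all genes. The groups did not overlap in 44.8% of these genes, against 14.9% of all tested genes. The list was chosen with earlier results of these data known, so these shares are a description. SURF1, an assembly factor of cytochrome c oxidase, was at 26.9, 29.8 and 21.9 FPKM in sham and at 17.9, 18.8 and 19.4 FPKM in DAC (difference -0.45, adjusted P = 0.505 by limma). SDHA, the flavoprotein of succinate dehydrogenase, was at 113, 109 and 111 FPKM in sham and at 90.0, 87.6 and 98.3 FPKM in DAC. UQCRC1, a core subunit of complex III, was at 297 ± 20.6 (SD, n = 3) in sham and 241 ± 11.3 FPKM (SD, n = 3) in DAC. The malate dehydrogenase gene MDH2 was at 695 ± 21.8 (SD, n = 3) and 580 ± 34.2 FPKM (SD, n = 3). COX5A, a cytochrome c oxidase subunit, differed by -0.38. COX5A and SURF1 were the genes called in each fit that left out 1 minipig. With a sham sample left out, the number called lower was 3 (replicate 1), 4 (replicate 2) or 2 (replicate 3), and with DAC replicate 4 left out it was 4. It was 5 after median scaling and 3 after quantile normalization. The median stayed below 0 in all these fits, and it was -0.13 when DAC replicate 4 was left out. DAC replicate 4 stood apart for COX4I1, a cytochrome c oxidase subunit named after its values were seen, at 185 FPKM against 753 to 893 FPKM in the other samples. The summed FPKM of the list was between 6757 and 7000 in sham and between 4618 and 6283 in DAC. Of the regulators of this list, ESRRA had a lower mean in DAC but was not called, and ESRRG differed by -0.078 with overlapping groups. NRF1 and GABPA differed by 0.007 and 0.005 on the log2 scale, and their coactivator gene PPARGC1A was called higher (0.54). A link between these regulators and the list was not tested.

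**Figure D5:**
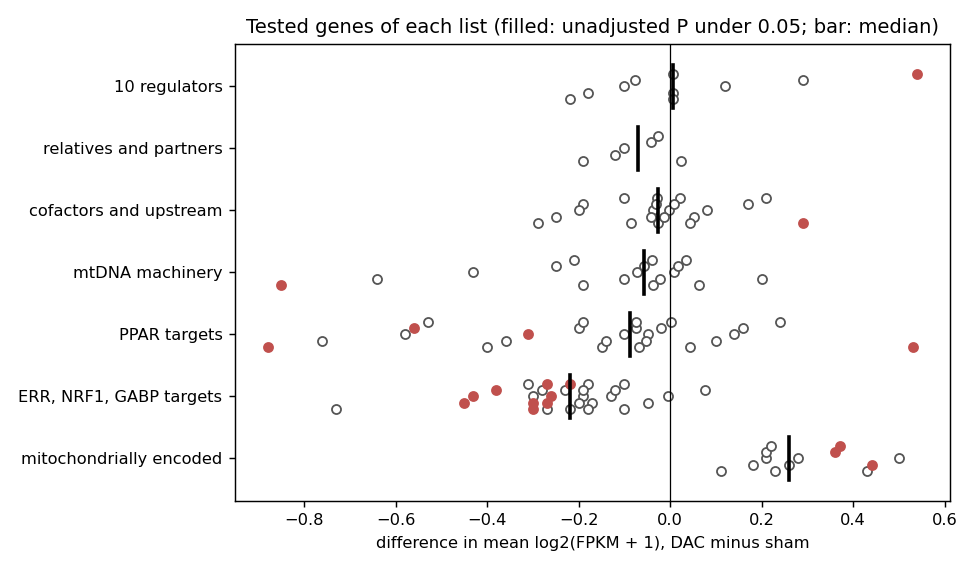
Difference in mean log2(FPKM + 1) between DAC and sham minipigs for each tested gene (dots) of the 10 regulators and of the other lists, filled red where the unadjusted P was under 0.05, with a black bar at the median of each list. The ERR, NRF1 and GABP targets lie almost all below 0 (median -0.22, or -0.13 with DAC replicate 4 left out), the mitochondrially encoded genes all above 0 (median 0.26, or 0.10 with DAC replicate 5 left out and 0.014 after quantile normalization), and the regulators on both sides (median 0.005).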

How the data were processed

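FPKM values of 6 ventricular samples were deposited by the authors in 1 table, a column for each minipig, with no sample pooled. Submitters' processing notes name HISAT2 and the genome build susScr11; the library kit was NEBNext Ultra, with paired-end reads. The quantification program, the annotation and the handling of shared or antisense reads are not given in the sources used here. Each listed gene reaches 0.500 FPKM in its highest sample. Depth is unknown, since no steps of whole reads were seen: at most 6 of at least 3459 low genes shared a ratio between samples.

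From the table, log2(FPKM + 1) was compared with limma 3.58.1 in R 4.3.3 (linear model, variance trend), on genes that reached 1 FPKM in 3 or more samples, and P was adjusted over all 11029 of them by the Benjamini-Hochberg method. The authors' threshold of P under 0.05 was used. Exact permutation tests used scipy 1.17.1, and figures used matplotlib 3.10.9. The fit was tested on simulated data. Symbols came from the table, and 519 unnamed genes took theirs from a table of identifiers. All 10 members overlapped the RefSeq position of the same symbol on Sscrofa11.1. Planned promoter motif searches were not run, for want of sequence. Named genes are the members, up to 5 genes of each list with the smallest P, and the 5 genes most like the member with the smallest P. Outside this rule, PPARG, GABPB1, MYH7, PRKAA2, SIRT1, PDK4, CD36, CPT1B, COX4I1, marker genes and genes overlapping a member were also named, after values were seen. NCOA1, NRIP1, PRKAA1 and LRPPRC were named where an alternative fit called them. Members and lists were chosen with earlier results of these data known. A planned gene of the PPAR target list is not reported here. Alternatives were other filters, a pseudocount of 0.1, median scaling, quantile normalization, mitochondrially encoded genes left out, unmoderated variance, sample weights, and each sample left out in turn.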

Additional observations from a re-analysis of the deposited data

How the results depend on the processing

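The groups were compared without pairing, since each sample is a separate minipig and the paper assigned minipigs to the groups at random. Among the regulators, the count called higher was 1 with no filter, a minimum of 5 FPKM, a pseudocount of 0.1, median scaling or sample weights, 2 after quantile normalization or with mitochondrially encoded genes left out (PPARGC1A and TFAM), and 0 with unmoderated variances. Leaving out 1 sample, it was 0 to 1, and the count called lower was 0 to 1. The median difference of the regulators, close to 0, was between -0.078 and 0.05 over these fits. Differences that were never called changed sign without 1 sample for PPARGC1B (-0.18 to 0.22), ESRRG (-0.23 to 0.046), PPARA (-0.017 to 0.26), NRF1 (-0.034 to 0.083) and GABPA (-0.032 to 0.053), and NRF1 was at -0.014 after quantile normalization and -0.011 with sample weights. With unmoderated variances, the count was 1 lower for relatives (PPRC1), 2 higher for cofactors (MEF2A and PRKAA1), 0 lower for the mitochondrial genome machinery, 0 higher for PPAR targets and 1 higher for mitochondrially encoded genes. TWNK was below a minimum of 5 FPKM, which left 0 calls in the machinery list. Median scaling gave 5 and quantile normalization 3 of the 29 ERR, NRF1 and GABP targets as lower, and quantile normalization gave 0 mitochondrially encoded genes as higher. Leaving out 1 sample gave cofactors 0 to 1 higher and 0 to 1 lower, the machinery 1 to 4 lower, PPAR targets 0 to 1 higher and 1 to 5 lower, ERR, NRF1 and GABP targets 2 to 8 lower, and mitochondrially encoded genes 0 to 8 higher. The cause of these shifts was not tested. With 3 minipigs a group and unknown depth, the 95% intervals above limit how small a change of a regulator could be seen.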
